A study of Mus musculus with 12 samples.

Results

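A set of 32 genes of glycolysis and of the response to low oxygen was followed by bulk RNA-seq of sorted mouse bone marrow macrophages. They were chosen by gene symbol, as 21 genes of glucose uptake, glycolysis, lactate handling and pyruvate diversion, and 11 other genes that hypoxia induces or that control that response. All 32 were found among the 23420 gene rows of the deposited count table, and 31 of them passed the filter on low counts. The untested gene was Adm, which encodes the vessel-relaxing peptide adrenomedullin and had 6 counts in all.

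The animals were C57BL/6 mice, and no engineered allele is named for them. The sample titles hold the numbers 7 and 19 without the word mouse, and these numbers were taken here to stand for animals. Every statement below on a single mouse or animal rests on that reading. Mesenchymal stromal cells (MSCs), which resemble fibroblasts and support blood formation, had been given to the tibias, while femurs of the same animals stayed untreated. There were 3 libraries per bone and mouse, so 6 for the treated tibia and 6 for the untreated femur. Treatment and bone changed together in every comparison, so their effects cannot be told apart, and "tibia" and "femur" below stand for treated tibia and untreated femur. Whether these mice carried leukaemia, which the series title mentions, and the route and time of MSC treatment, were not stated in the labels. The labels do not say whether the 3 libraries of a bone came from separate sorts, so p-values over libraries measure a spread that may be technical.

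Glycolysis splits glucose into pyruvate in the cytosol, and lactate dehydrogenase turns pyruvate into lactate when it is not burned in mitochondria. When oxygen is low, prolyl hydroxylases stop marking hypoxia-inducible factor 1 (HIF-1) for destruction, and the factor raises many glycolytic genes together with genes for vessel growth and mitochondrial turnover. Macrophages activated by inflammatory signals also lean on glycolysis, and HIF-1 alpha protein can rise in them without low oxygen. Transcript counts show neither the flux through the pathway nor the amount of HIF-1 protein.

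Libraries held 9773455 to 14869150 counts, and the 32 genes took 0.680 to 0.835% of them. Levels are given as CPM, counts scaled to a common total with TMM factors. All 10 macrophage and monocyte markers examined were detected, and their summed level ran from 18710 to 22610 CPM. Neutrophil markers were also abundant, at 17390 to 19240 CPM in both bones of mouse 7 and 25830 to 31440 CPM in mouse 19. Of 7 genes of granulocyte precursors, 5 were higher in tibia over both mice. Dendritic cell genes summed to 95.8 to 98.7 CPM in the femur and 67.3 to 73.8 CPM in the tibia of mouse 7, and to 107 to 115 and 83.9 to 95.4 CPM in those of mouse 19, with 3 of 6 lower in tibia. Of 5 eosinophil genes 2 were lower, and of 8 erythroid genes tested 2 were lower and 1 higher. Of 9 neutrophil genes tested 3 were higher and 2 lower, and of 10 macrophage and monocyte genes Mertk was higher and Lyz2 lower. Of 15 genes of dividing cells 1 was higher, as were 1 of 3 megakaryocyte and platelet genes and 1 of 4 osteoclast genes tested. Of 2 endothelial genes tested 1 was lower, and no B cell or T and NK cell gene was called. These calls are from the edgeR test described below, in which 3.51% of all genes were higher and 3.69% lower. The 9 stromal and osteoblast genes summed to 2.47 to 9.82 CPM. Of these, Cxcl12 had group means of 1.58 to 5.12 CPM and Pdgfrb of 0.799 to 1.27 CPM, the other 7 (Col1a1, Col1a2, Col3a1, Lepr, Pdgfra, Bglap, Sp7) had group means under 1 CPM, and none of the 3 tested was called. In bulk RNA, fewer cells of a type and less RNA per cell cannot be told apart.

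The core of the DNA motif bound by HIF is ACGTG or GCGTG, and it was searched on both strands in the RefSeq promoter windows of build GRCm38.p6, which run from 250 bases before to 50 after each annotated start. A window was on hand for 29 of the 32 genes, and 27 of these (93.1%) held the core in at least 1 window. The share was 46.7% over 27025 RefSeq genes with a window and 67.6% over 8826 genes tested here. The form ACGTG alone was found in 72.4% of the 29 genes and in 29.6% of the genes tested. The median GC content of the windows was 63.2% in the 29 genes and 60.7% in the genes tested. A core that lies in CACGTG is also an E-box, the motif of Myc and its relatives, and CACGTG occurred in 13.8% of the 29 genes and 11.9% of the genes tested. Whether the match divides the genes by their change cannot be told. Of the 29 genes 27 held it, and only 2 of the lower genes had a window. Genes with several windows also had more chances to hold it. The core was present in at least 1 window in 6 of the 7 genes higher in tibia. It was also present in both genes with a window among those lower in tibia, and in 18 of the 19 that passed no threshold. For Aldoa, Pkm and Vegfa among the 6, the window of the most upstream start held none, and only internal starts had a match. The matched stretches of Pkm and Vegfa touched an annotated exon. The matches in all genes are matches of letters and not shown binding sites.

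Upstream stretches of 7 of these promoters are shown because they belong to genes that rose (Pgk1, Ldha, Pdk1, Aldoa), to genes that fell (Hk2, P4ha1) and to the gene of the factor itself (Hif1a). Each is written 5′ to 3′ on the strand of its gene, and capitals mark each match to the core on either strand. The stretches lie at chrX:106186930-106186993 (plus strand), chr7:46845675-46845794 (plus), chr2:71873126-71873170 (plus), chr7:126799356-126799400 (minus), chr6:82774482-82774601 (minus), chr10:59323176-59323295 (plus) and chr12:73907712-73907821 (plus), in the order listed, and none touches an annotated exon. For Aldoa the match lay upstream of internal starts, and the window of its most upstream start held none. The Ldha and Hif1a stretches lie upstream of RefSeq starts but inside the spans that the GENCODE annotation gives these genes.
Pgk1: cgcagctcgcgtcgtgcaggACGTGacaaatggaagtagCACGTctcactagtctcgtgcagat
Ldha: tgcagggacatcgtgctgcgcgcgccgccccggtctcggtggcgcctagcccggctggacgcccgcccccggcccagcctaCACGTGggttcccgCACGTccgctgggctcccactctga
Pdk1: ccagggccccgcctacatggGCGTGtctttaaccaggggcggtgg
Aldoa: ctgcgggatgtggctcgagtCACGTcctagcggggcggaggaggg
Hk2: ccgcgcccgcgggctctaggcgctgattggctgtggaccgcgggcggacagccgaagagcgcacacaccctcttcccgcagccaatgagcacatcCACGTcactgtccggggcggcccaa
P4ha1: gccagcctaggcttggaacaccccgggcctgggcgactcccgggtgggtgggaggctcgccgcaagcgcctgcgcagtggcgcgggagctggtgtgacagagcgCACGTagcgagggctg
Hif1a: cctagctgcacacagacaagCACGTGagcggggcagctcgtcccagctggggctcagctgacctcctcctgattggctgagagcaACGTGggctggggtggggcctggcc
The Pgk1 stretch holds a core on each strand, the Ldha stretch holds CACGTG followed by a further CACGT, and the Hif1a stretch also holds CACGTG.

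The first question was which of the genes differed between tibia and femur over both mice. The enzyme genes Aldoa, Tpi1, Pgk1, Pkm and Ldha, the pyruvate dehydrogenase kinase Pdk1 and the vessel growth factor Vegfa were higher in tibia. The glucose transporter Slc2a3, the hexokinase Hk2, the collagen prolyl hydroxylase P4ha1 and the stress-induced Ndrg1 were lower. All of the changes were small, with Vegfa, at 0.49 on the log2 scale, the largest among the genes tested here from the list. The test was edgeR's quasi-likelihood test with the mouse as a term, adjusted by Benjamini-Hochberg over all 11806 genes tested and called under 0.05. In it 7 of 31 members were higher, where 3.51% of all genes tested were, and 4 were lower, where 3.69% of all genes were.

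Split by role, 6 of 21 glycolysis genes were higher and 2 lower, with a median log2 change of 0.078. Of the 10 other hypoxia genes tested, 1 was higher and 2 lower, with a median of 0.054. The median over all genes tested was -0.0021. Genes that hypoxia is known to induce thus stood on both sides, Pgk1, Ldha, Pdk1 and Vegfa among the higher and Slc2a3, Hk2, P4ha1 and Ndrg1 among the lower.

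**Figure D1:**
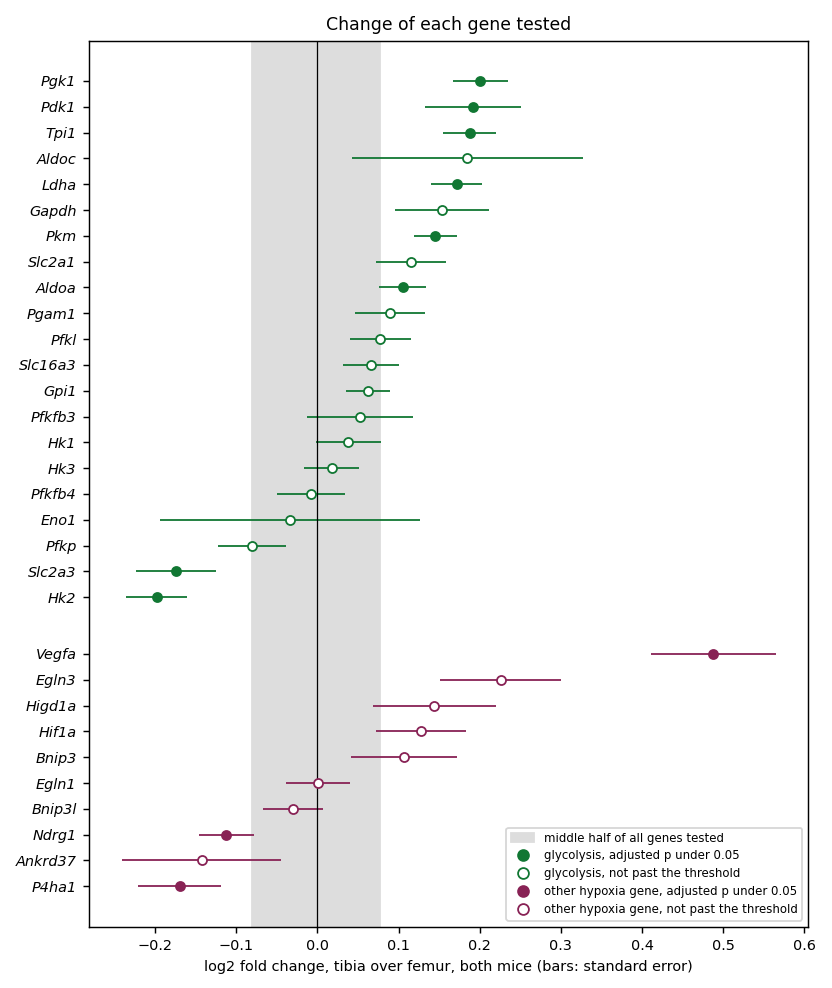
Log2 fold change of each of the 31 genes tested, tibia over femur across both mice, with bars of 1 standard error. Filled points passed an adjusted p of 0.05 and open points did not, and the grey band holds the middle 50% of all genes tested. The filled glycolysis points to the right are Pgk1, Pdk1, Tpi1, Ldha, Pkm and Aldoa, and Vegfa lies farthest right at 0.49.

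Glucose enters macrophages mainly through the transporter GLUT1, encoded by Slc2a1, and also through the high-affinity GLUT3, encoded by Slc2a3 (chr6:122727809-122801640 in the GENCODE annotation of GRCm38). Per kilobase of exon, Slc2a1 stood at 20.5 ± 2.8 CPM and Slc2a3 at 13.6 ± 4.3 CPM in femur (SD, n = 6). Slc2a3 was at 70.8, 73.0 and 67.3 CPM in the femur libraries of mouse 7 and at 65.1, 55.4 and 70.7 CPM in its tibia libraries. In mouse 19 it was at 125, 130 and 127 CPM in femur and 115, 104 and 113 CPM in tibia. The bones overlapped in mouse 7, and in mouse 19 every tibia library lay below every femur library. Over both mice Slc2a3 fell by 0.17 ± 0.05 (SE) on the log2 scale (edgeR adjusted p = 0.0319). This call was lost without any 1 of 7 libraries (femur 1 or 2 or tibia 2 of mouse 7, femur 1, 2 or 3 or tibia 2 of mouse 19), with an adjusted p of up to 0.0981. Slc2a1 was at 71.9 ± 9.8 CPM in femur and 78.0 ± 11.7 CPM in tibia and did not pass the test (0.12 ± 0.04, edgeR adjusted p = 0.108). It passed only without tibia library 2 of mouse 7 (adjusted p = 0.0471).

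Hexokinases trap glucose in the cell by phosphorylating it. Per kilobase, Hk3, the isoform typical of myeloid cells, had the highest level of the 3 hexokinases, at 79.6 CPM in femur, above Hk2 at 26.6 and Hk1 at 15.7 CPM. Hk2 (chr6:82725025-82774454), the isoform that hypoxia and activation induce, was at 152, 155 and 150 CPM in the femur of mouse 7 and at 140, 139 and 140 CPM in its tibia. In mouse 19 it was at 171, 164 and 161 CPM in femur and at 138, 129 and 143 CPM in tibia. The tibia lay wholly below the femur in each mouse. Hk2 fell by 0.20 ± 0.04 on the log2 scale (edgeR adjusted p = 0.00178), and the call was kept without any 1 of the 12 libraries. Hk1 changed by 0.04 and Hk3 by 0.02 on the log2 scale, and neither passed (adjusted p = 0.645 and 0.828).

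The next steps convert glucose 6-phosphate and commit it to the pathway, and none of their genes passed over both mice. Gpi1, the isomerase, was at 996 ± 93 CPM in femur and 1039 ± 93 CPM in tibia. The phosphofructokinase genes Pfkl and Pfkp encode the liver and platelet forms of the committing enzyme, and Pfkl, at 16.1 CPM per kilobase in femur, stood above Pfkp at 8.56. Their log2 changes were 0.08 and -0.08, and the tibia values were above the femur mean of their mouse in 6 of 6 libraries for Pfkl and below it in 6 of 6 for Pfkp (edgeR adjusted p = 0.239 for Pfkl and 0.273 for Pfkp). Pfkfb3 and Pfkfb4 make fructose 2,6-bisphosphate, the activator of phosphofructokinase. Pfkfb4 differed by -0.01 (adjusted p = 0.942), and Pfkfb3 moved in opposite directions in the mice, as described further on.

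Aldolase splits the sugar phosphate, and nearly all aldolase transcript here came from Aldoa (chr7:126795234-126800751), at 381 CPM per kilobase in femur against 1.44 for Aldoc. Aldoa was at 1028, 989 and 1087 CPM in the femur of mouse 7 and at 1101, 1157 and 1178 CPM in its tibia. In mouse 19 it was at 1185, 1174 and 1190 CPM in femur and 1244, 1255 and 1207 CPM in tibia. No tibia library overlapped a femur library of its mouse. The change was 0.10 ± 0.03 (edgeR adjusted p = 0.0293), and the call was lost when femur 1, femur 2, tibia 2 or tibia 3 of mouse 7 was left out, with an adjusted p of up to 0.0912.

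Triose phosphate isomerase, encoded by Tpi1 (chr6:124810586-124814296), interconverts the split sugars so that both proceed. Tpi1 was at 217, 216 and 224 CPM in the femur and 257, 265 and 247 CPM in the tibia of mouse 7. Mouse 19 had 280, 278 and 262 CPM in femur and 301, 312 and 293 CPM in tibia. The bones were apart in both mice, and Tpi1 rose by 0.19 ± 0.03 (edgeR adjusted p = 0.000662). Phosphoglycerate kinase, encoded by Pgk1 (chrX:106187100-106203699), makes the first ATP of the pathway. Pgk1 was at 328, 307 and 345 CPM in the femur of mouse 7 against 384, 400 and 397 CPM in its tibia, and at 409, 401 and 404 CPM in the femur of mouse 19 against 455, 451 and 425 CPM in its tibia. It too was apart in both mice and rose by 0.20 ± 0.03 (edgeR adjusted p = 0.000542). The motif pair shown for Pgk1 has its counterpart in no window of Tpi1, which held no core match.

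Pyruvate kinase, encoded by Pkm (chr9:59656368-59679375), was among the most abundant members at 348 CPM per kilobase in femur. Pkm was at 1624, 1579 and 1678 CPM in the femur and 1735, 1837 and 1882 CPM in the tibia of mouse 7. In mouse 19 it was at 1897, 1834 and 1837 CPM in femur and 2046, 2067 and 1982 CPM in tibia. The groups did not overlap within either mouse, and the rise was 0.15 ± 0.03 (edgeR adjusted p = 0.00127). Gene counts do not separate the M1 and M2 splice forms of Pkm.

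Ldha (chr7:46841475-46855627), whose product reduces pyruvate to lactate, was at 366, 359 and 385 CPM in the femur and 406, 413 and 439 CPM in the tibia of mouse 7. The levels of Ldha in mouse 19 were 423, 411 and 442 CPM in femur and 487, 487 and 454 CPM in tibia. Again the bones were apart in both mice, and Ldha rose by 0.17 ± 0.03 (edgeR adjusted p = 0.00131). The calls of Tpi1, Pgk1, Pkm and Ldha over both mice were each kept without any 1 of the 12 libraries. Slc16a3, which encodes the lactate exporter MCT4, was at 169 ± 18 CPM in femur and 177 ± 22 CPM in tibia and did not pass (0.07, adjusted p = 0.289).

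Pdk1 (chr2:71873224-71903858) encodes a kinase that shuts pyruvate out of the mitochondrial acid cycle. It was at 35.9, 34.1 and 35.7 CPM in the femur and 36.3, 36.4 and 37.2 CPM in the tibia of mouse 7. In mouse 19 Pdk1 was at 33.0, 34.0 and 31.3 CPM in femur and 44.0, 41.5 and 37.8 CPM in tibia. The bones were apart in both mice, by a small gap in mouse 7. Pdk1 rose by 0.19 ± 0.06 (edgeR adjusted p = 0.0488). Leaving out femur 2 or tibia 2 or 3 of mouse 7, or femur 1, 2 or 3 or tibia 1 or 2 of mouse 19, ended the call, with an adjusted p of up to 0.131.

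The other enzyme genes did not pass over both mice. Gapdh, which encodes the dehydrogenase that feeds NADH to lactate formation, was at 132, 136 and 128 CPM in the femur and 157, 163 and 155 CPM in the tibia of mouse 7. Gapdh in mouse 19 was at 193, 147 and 150 CPM in femur and 166, 183 and 156 CPM in tibia, and femur library 1 was the highest of all. The change was 0.15 ± 0.06 (edgeR adjusted p = 0.110), and it passed once femur 1 or tibia 3 of mouse 19 was left out, with an adjusted p down to 0.00193. Pgam1, the mutase, differed by 0.09 (adjusted p = 0.235) and Aldoc by 0.18 ± 0.14 (adjusted p = 0.494). Eno1, the main enolase gene, had only 3.19 ± 0.28 CPM in femur and 3.11 ± 0.28 CPM in tibia, and its change of -0.03 ± 0.16 was the least precise of the glycolysis genes.

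Some of these levels are uncertain because near-identical copies exist in the genome. In the GENCODE transcripts, 85.6% of the Eno1 transcript was matched at 97% identity or more by Eno1b, 88.0% of Gapdh by 48 other genes of which 45 are pseudogenes, 68.8% of Pgk1 by the pseudogene Pgk1-rs7 and 65.5% of Pkm by Gm6560. Smaller shares were matched for Pgam1 (43.1%), Gpi1 (36.3%) and Tpi1 (19.3%). Reads of such stretches can be lost or split in counting, and the labels do not state their handling. No such copy was found for Aldoa, Ldha, Hk2, Slc2a3, Pdk1, Vegfa, P4ha1 or Ndrg1.

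Summed over the 15 enzyme genes from the hexokinases to Ldha, the level was 5566 ± 161 CPM in the femur and 6095 ± 190 CPM in the tibia of mouse 7 (SD, n = 3 libraries). In mouse 19 the sum was 6397 ± 112 CPM in femur and 6782 ± 157 CPM in tibia. The tibia libraries lay above the femur libraries in each mouse, and the femur of mouse 19 lay above the tibia of mouse 7. Pkm, Aldoa and Gpi1 made up most of this enzyme sum, with femur means of 1741, 1109 and 996 CPM over both mice. The sum therefore does not show a rise of every enzyme gene, and Hk2 was lower in tibia. The sum of the 11 other hypoxia genes went in opposite directions, from 854 ± 0.56 CPM in femur to 818 ± 8.8 CPM in tibia of mouse 7 and from 816 ± 5.5 to 840 ± 6.0 CPM in mouse 19. Hif1a, part of that sum, went from 219 to 207 CPM in mouse 7 and from 145 to 185 CPM in mouse 19. Its rise in mouse 19 was larger than that of the whole sum, so the opposite directions do not describe the remaining genes. The summed level of the 7 granulocyte precursor genes ran in the order of the enzyme sum by group means, with overlapping ranges, from 726 to 762 CPM in the femur of mouse 7, 1041 to 1288 in its tibia, 1208 to 1510 in the femur of mouse 19 and 1485 to 1834 in its tibia. The summed neutrophil markers ranged from 17390 to 19100 CPM in the femur and 17790 to 19240 in the tibia of mouse 7, and from 25830 to 29560 and from 29050 to 31440 CPM in those of mouse 19. Genes of dividing cells summed to 3947 to 4108 and 4493 to 4621 CPM in the femur and tibia of mouse 7, and to 4820 to 4945 and 4404 to 4607 CPM in those of mouse 19. Macrophage and monocyte markers ran from 22030 to 22610 and 20040 to 20740 CPM in mouse 7 and from 19090 to 19530 and 18710 to 19720 CPM in mouse 19. Most of that sum was Lyz2, with group means of 12980 to 15470 CPM. The part of these cells in the glycolysis result was not tested.

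**Figure D2:**
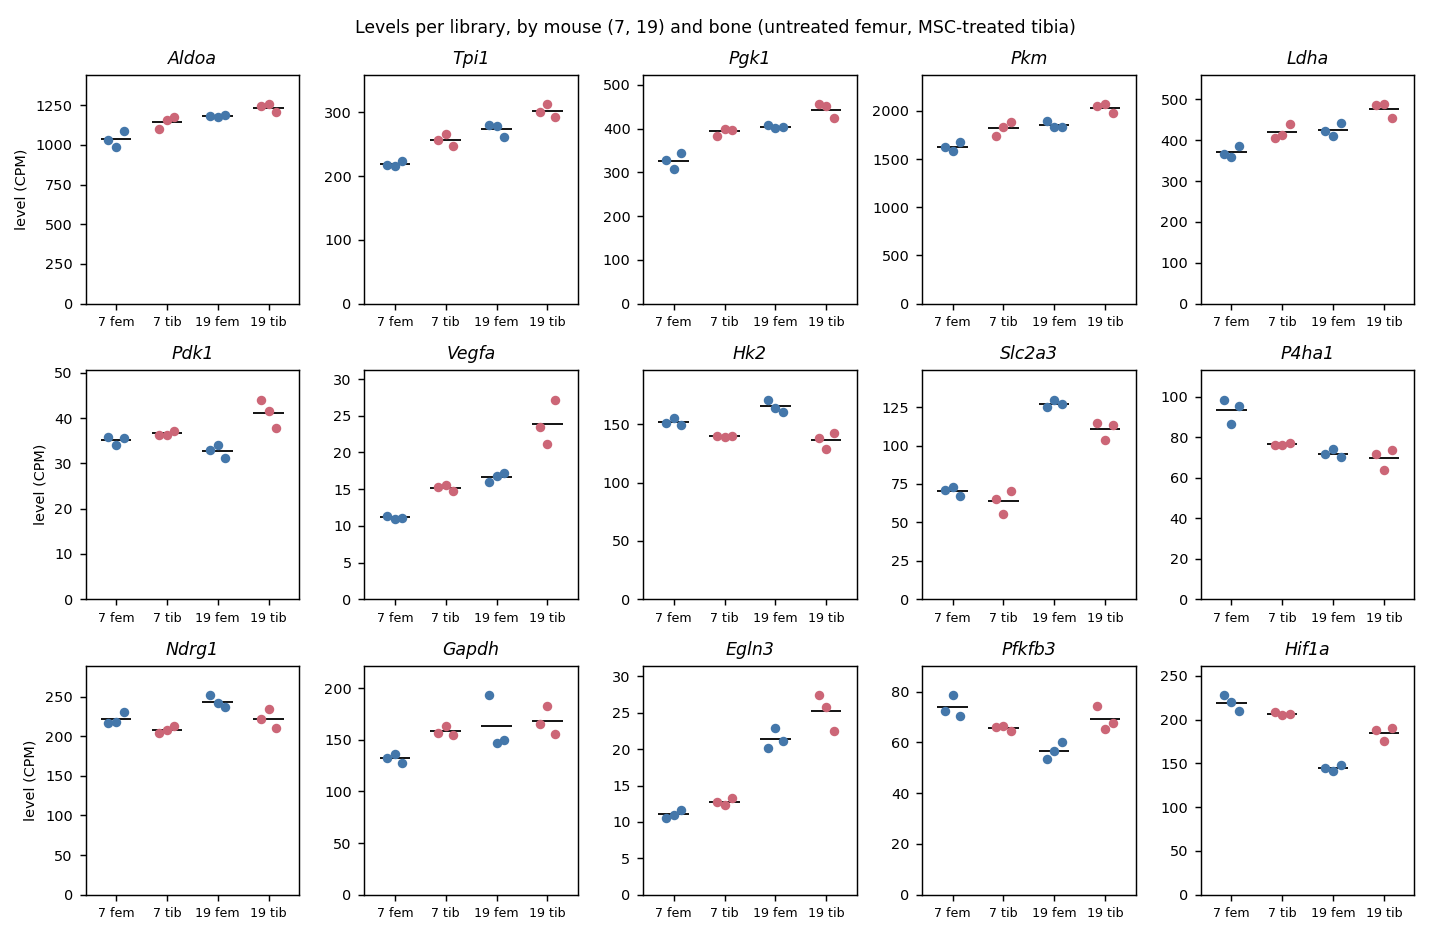
Levels in CPM of 15 of the genes, 1 point per library, for femur (blue) and tibia (red) of mouse 7 and mouse 19, with the mean of 3 libraries as a line and each vertical axis starting at 0. Tibia points lie above the femur points of the same mouse for Aldoa, Tpi1, Pgk1, Pkm, Ldha, Pdk1 and Vegfa and below them for Hk2 and Ndrg1.

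Among the genes of oxygen sensing, Hif1a encodes the oxygen-regulated subunit of HIF-1, and Egln1 and Egln3 encode the prolyl hydroxylases PHD2 and PHD3. Egln1 was at 79.0 ± 3.3 CPM in femur and 79.1 ± 1.0 CPM in tibia (adjusted p = 0.993). Egln3, which HIF itself induces, was at 10.5, 11.02 and 11.6 CPM in the femur and 12.7, 12.3 and 13.3 CPM in the tibia of mouse 7. In mouse 19 Egln3 was at 20.2, 22.9 and 21.1 CPM in femur and 27.4, 25.8 and 22.6 CPM in tibia. The bones were apart in mouse 7 and overlapped in mouse 19, and the change of 0.23 ± 0.07 did not pass (edgeR adjusted p = 0.0676). It passed without tibia library 3 of mouse 19 (adjusted p = 0.0327). Hif1a differed by 0.13 ± 0.06 over both mice (edgeR adjusted p = 0.186), from values that ran in opposite directions in the mice, as described further on.

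Vegfa (chr17:46016993-46032369), the vascular endothelial growth factor, was at 11.4, 10.9 and 11.1 CPM in the femur and 15.3, 15.6 and 14.8 CPM in the tibia of mouse 7. Its levels in mouse 19 were 15.95, 16.8 and 17.1 CPM in femur and 23.5, 21.1 and 27.2 CPM in tibia. All tibia libraries stood above all femur libraries of their mouse. Vegfa rose by 0.49 ± 0.08 (edgeR adjusted p = 0.000277), and the call was kept without any 1 of the 12 libraries.

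P4ha1 (chr10:59323296-59373304) encodes the catalytic subunit of collagen prolyl hydroxylase. It was at 98.4, 86.4 and 95.3 CPM in the femur and 76.2, 76.0 and 77.2 CPM in the tibia of mouse 7. The P4ha1 levels of mouse 19 were 71.5, 74.1 and 70.1 CPM in femur and 71.5, 63.8 and 73.8 CPM in tibia. The bones were apart in mouse 7 and overlapped in mouse 19. P4ha1 fell by 0.17 ± 0.05 over both mice (edgeR adjusted p = 0.0437), and the call was lost without any 1 library of mouse 7 or without femur 2 or tibia 2 of mouse 19, with an adjusted p of up to 0.123.

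Ndrg1 (chr15:66929318-66969640), a stress-responsive gene that hypoxia induces in many cells, was at 217, 218 and 231 CPM in the femur and 204, 208 and 213 CPM in the tibia of mouse 7. In mouse 19 the Ndrg1 levels were 251, 242 and 237 CPM in femur and 222, 234 and 210 CPM in tibia. The tibia lay below the femur in both mice, by small gaps. Ndrg1 fell by 0.11 ± 0.03 (edgeR adjusted p = 0.0452). The call was kept only without tibia library 2 of mouse 19 (adjusted p = 0.0408), and it was lost without any other 1 library, with an adjusted p of up to 0.120.

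The remaining hypoxia genes did not pass. Bnip3 and Bnip3l, whose products mark mitochondria for removal, differed by 0.11 and -0.03 on the log2 scale (adjusted p = 0.372 and 0.706). Higd1a, a mitochondrial survival factor, differed by 0.14 (adjusted p = 0.285), and Ankrd37, a HIF target of little known function, by -0.14 ± 0.10 at 13.5 ± 3.2 CPM in femur (adjusted p = 0.438). Copies matched 94.2% of the Bnip3 transcript, 34.7% of Bnip3l and 12.9% of Higd1a, so their levels are uncertain too. Adm had 2 counts in each of 3 femur libraries and 0 in the other 9, where a count of 0 allows up to 6 counts, or 0.404 to 0.617 CPM.

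With counts summed per mouse and bone, so that the animal is the unit, edgeR called 0 members in either direction, where 0.407% of all genes were higher and 0.144% lower. At an unadjusted p under 0.05 there were 11 of the 31 members, and the share of all genes at that p was not counted. Vegfa came closest, with an adjusted p of 0.069. It passed when femur 1 or tibia 2 of mouse 7, or tibia 1 of mouse 19, was left out. The 7 genes called higher over both mice were also the members whose tibia libraries all stood above all femur libraries of their mouse in both mice, which held for 2.44% of all genes tested. Hk2 and Ndrg1 were the members wholly below in both mice, which held for 2.76% of all genes.

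The second question was whether the change was alike in the mice, each with its own femur as control. Within mouse 7, 7 members were higher (Aldoa, Tpi1, Gapdh, Pgk1, Pkm, Ldha, Vegfa) where 4.37% of all genes were, and P4ha1 alone was lower where 5.36% were. Within mouse 19, 7 were higher (Pfkfb3, Tpi1, Pkm, Ldha, Pdk1, Vegfa, Hif1a) where 2.96% of all genes were, and Hk2 alone was lower where 2.21% were. Among glycolysis genes, 15 of 21 changes pointed upward in both mice, 3 downward in both and 3 in opposite directions, whether or not they passed. Of the 10 other hypoxia genes, 4 pointed upward in both, 4 downward in both and 2 in opposite directions. Such directions were not counted over all genes tested, so they do not set these genes apart.

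Genes whose call was made in both mice had like changes in them. Vegfa rose by 0.45 in mouse 7 and 0.52 in mouse 19 (edgeR adjusted p = 0.0110 and 0.00244). Tpi1 rose by 0.23 and 0.15, Pkm by 0.16 and 0.13, and Ldha by 0.18 and 0.16. In mouse 19 the calls of these 3 enzymes were lost without single libraries of that mouse (femur 1, 2 or 3 or tibia 1 or 2 for Tpi1, femur 2 or 3 or tibia 1 or 2 for Pkm, and femur 1 or 2 or tibia 1 or 2 for Ldha), with adjusted p of up to 0.196, 0.0952 and 0.121. In mouse 7 Tpi1 and Pkm were kept without any 1 library, and Ldha was lost without tibia 3 (adjusted p = 0.0543).

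For other genes the call stood in 1 mouse, which does not show that the mice differ. Pgk1 rose by 0.27 in mouse 7, and in mouse 19 its change of 0.13 narrowly missed (edgeR adjusted p = 0.0525). Hk2 fell by 0.27 in mouse 19 and differed by -0.12 in mouse 7 (adjusted p = 0.104). Pdk1 rose by 0.33 in mouse 19, with 0.06 in mouse 7 (adjusted p = 0.705), and was lost in mouse 19 without tibia 1 (adjusted p = 0.0710). P4ha1 fell by 0.29 in mouse 7, with -0.04 in mouse 19 (adjusted p = 0.793). Aldoa rose by 0.15 in mouse 7, a call lost without femur 2 or tibia 3, and Gapdh rose by 0.26 there, a call lost without femur 1 or 3 or tibia 2 (adjusted p of up to 0.0761 and 0.0722). None of these 6 genes passed the test of the difference between the mice on all 12 libraries, and P4ha1 passed it once tibia 2 of mouse 19 was left out.

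That test, the change in mouse 19 minus the change in mouse 7, called 2 members higher, where 2.89% of all genes were, and 0 lower, where 1.85% were. DESeq2 and limma-voom also called 0 lower, and 7 members in either direction had an unadjusted p under 0.05 in edgeR. How many of all genes had such an unadjusted p was not counted. The members called were Pfkfb3 and Hif1a.

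Pfkfb3 (chr2:11471433-11554077), whose product is the chief activator of glycolytic flux in stimulated cells, was at 72.5, 78.4 and 70.3 CPM in the femur and 66.0, 66.5 and 64.5 CPM in the tibia of mouse 7. In mouse 19 it was at 53.3, 56.5 and 60.2 CPM in femur and 74.4, 65.2 and 67.6 CPM in tibia. The tibia of mouse 7 lay wholly below its femur, and that of mouse 19 wholly above. The log2 change was -0.17 ± 0.06 in mouse 7 (edgeR adjusted p = 0.0928) and 0.28 ± 0.06 in mouse 19 (adjusted p = 0.00649), and the difference was 0.45 ± 0.09 (adjusted p = 0.00179). The call in mouse 19 was lost without its femur 1 or tibia 1 (adjusted p of up to 0.0848), and the call of the difference was kept without any 1 of the 12 libraries.

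Hif1a (chr12:73901375-73947530) was at 228, 220 and 210 CPM in the femur and 208, 205 and 207 CPM in the tibia of mouse 7. In mouse 19 the Hif1a levels were 145, 141 and 149 CPM in femur and 188, 175 and 190 CPM in tibia. The pattern was that of Pfkfb3, with the tibia wholly below the femur in mouse 7 and wholly above in mouse 19. Hif1a differed by -0.08 in mouse 7 (edgeR adjusted p = 0.274) and rose by 0.35 in mouse 19 (adjusted p = 4.53e-06). The difference was 0.43 ± 0.06 (adjusted p = 5.65e-05), and its call was kept without any 1 of the 12 libraries. For both genes the tibias of the mice were closer to each other than the femurs were. Of the macrophage and monocyte markers, Emr1, Csf1r, Cd68, Fcgr1, Itgam and Ccr2 also had lower tibia means in mouse 7 and higher ones in mouse 19. Lyz2, Mertk, Cd14 and Ly6c2 did not. Group means of Csf1r were 1107 CPM in femur and 1004 in tibia of mouse 7, and 785 and 906 CPM in those of mouse 19. The part of these cells in the changes of Pfkfb3 and Hif1a was not tested.

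**Figure D3:**
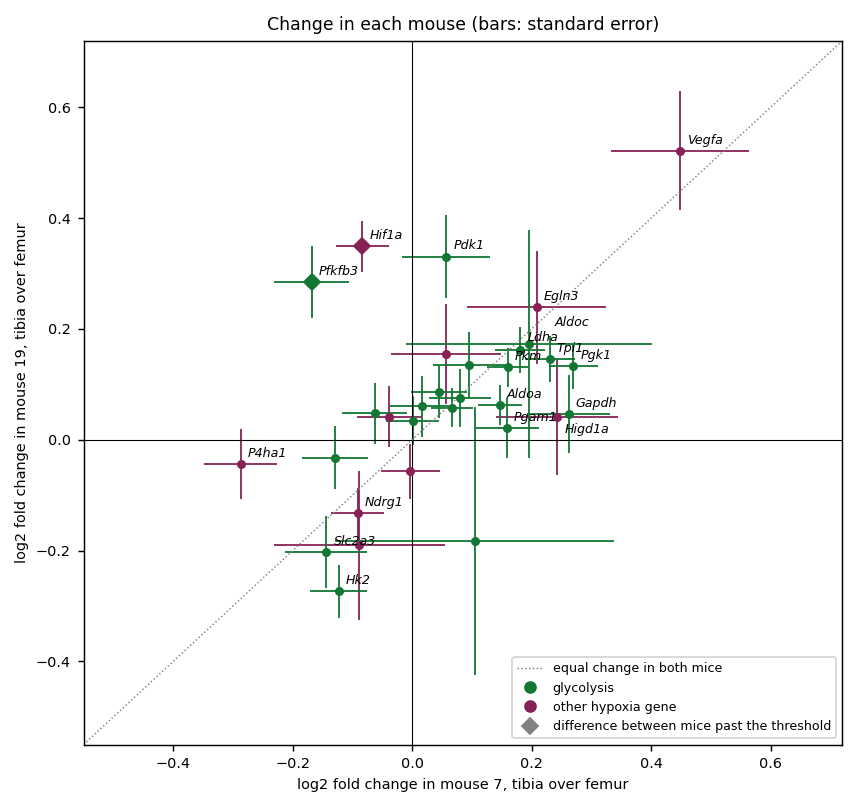
Log2 fold change, tibia over femur, in mouse 7 (horizontal) and mouse 19 (vertical) for the 31 genes tested, with bars of 1 standard error and the dotted line of equal change. Diamonds mark Pfkfb3 and Hif1a, the genes past the threshold for the difference between mice, both in the upper left.

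The third question was how the untreated femurs of the mice compared, which sets the size of the bone changes beside that between animals. With 1 animal on each side this is a description, with no test. All 3 femur libraries of mouse 19 stood above all 3 of mouse 7 in 19 of 31 members, where 20.3% of all genes tested did, and below in 4, where 20.7% did. The 19 included 14 of the 21 glycolysis genes. The farthest above was Egln3, with a mean level 1.93 times that of mouse 7, followed by Slc2a3 at 1.81, Ankrd37 at 1.53 and Vegfa at 1.49 times. The 4 below were Pdk1, P4ha1 at 0.770, Pfkfb3 at 0.768 and Hif1a at 0.661 times the level of mouse 7. Hif1a was thus lower in the femur in which Vegfa, Egln3 and most glycolytic enzymes were higher. In size, the bone change over both mice was smaller than the femur difference between the mice in 27 of 31 members. It was smaller in 9 of the 11 members called, the exceptions being Hk2 and Pdk1. Neither count was taken over all genes tested, and the femur difference rests on fewer libraries. The counts therefore do not set these members apart from other genes. The summed levels of neutrophil and granulocyte precursor genes given above were also higher in the femur of mouse 19, and their part in this difference was not tested.

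**Figure D4:**
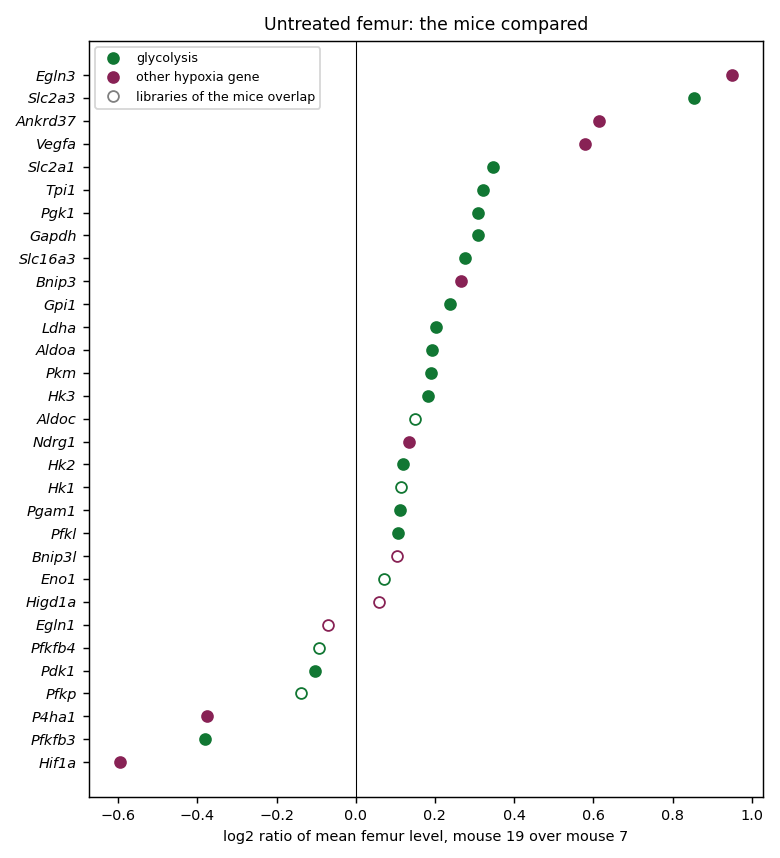
Log2 ratio of the mean level in untreated femur, mouse 19 over mouse 7, for the 31 genes tested, with open points where libraries of the mice overlap. Egln3 (1.93 times) is at the upper end and Hif1a (0.661 times) at the lower end.

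Related pathways were read from lists of other genes. Of 27 other genes of glycolysis and pyruvate entry tested, 1 was higher and 0 lower over both mice, near the 3.51% and 3.69% of all genes, with a median log2 change of 0.032 and 2 genes at an unadjusted p under 0.05. That gene was Pdk3, a further pyruvate dehydrogenase kinase, at 37.1 ± 1.1 CPM in femur and 44.6 ± 4.0 CPM in tibia (0.26 ± 0.06, edgeR adjusted p = 0.00490). Of 8 genes of the pentose phosphate pathway, which draws sugar off for NADPH and nucleotides, 0 passed in edgeR (2 at an unadjusted p under 0.05), with a median of 0.065. In the list of the tricarboxylic acid cycle 1 of 17 genes was higher and 0 lower, against 3.51% and 3.69% of all genes, with a median of 0.060. The gene was Mdh1 (0.14, edgeR adjusted p = 0.0289), the cytosolic malate dehydrogenase, which lies outside the mitochondrial cycle. Its call was lost without any 1 of 6 libraries, with an adjusted p of up to 0.0769. These were femur 1 and tibia 2 and 3 of mouse 7, and femur 1 and 2 and tibia 2 of mouse 19. Mdh2 of the same list did not pass (0.10, adjusted p = 0.0912).

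Of 28 other hypoxia-induced genes tested, 5 were higher and 2 lower, where 3.51% and 3.69% of all genes were, with a median of 0.051. Mif, a cytokine with tautomerase activity, was at 37.4 ± 5.0 CPM in femur and 47.9 ± 5.2 CPM in tibia and rose by 0.36 ± 0.06 (edgeR adjusted p = 0.000197). Bhlhe40, a transcriptional repressor, rose by 0.33 ± 0.05 (adjusted p = 0.000503), and P4hb, the partner subunit of P4ha1 and a disulfide isomerase, rose by 0.21 ± 0.03 (adjusted p = 9.52e-05) where P4ha1 fell. Hmox1, which degrades heme, rose by 0.32 ± 0.06 (adjusted p = 0.00115). Narf fell by 0.21 ± 0.04 (adjusted p = 0.000526). Mif, Bhlhe40, P4hb, Hmox1 and Narf were each kept without any 1 of the 12 libraries. Plin2 and Cxcr4, the others called, were lost without several single libraries, with adjusted p of up to 0.0818 and 0.100.

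Among 13 genes of the machinery around HIF, Tceb2, which encodes elongin B of the ligase that destroys HIF, was higher by 0.16 ± 0.04 (edgeR adjusted p = 0.0119). Ep300, a coactivator of HIF, fell by 0.15 ± 0.04 (adjusted p = 0.0109). The median of these 13 was -0.017. On sums per animal, edgeR called 0 genes of the 5 lists. At an unadjusted p under 0.05 there were 1, 8, 2, 0 and 3 genes higher and 0, 1, 2, 0 and 0 lower. The order is glycolysis and pyruvate entry, hypoxia-induced genes, HIF machinery, pentose phosphate pathway and acid cycle. The share of all genes at an unadjusted p under 0.05 was not counted, here or for the lists above.

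**Figure D5:**
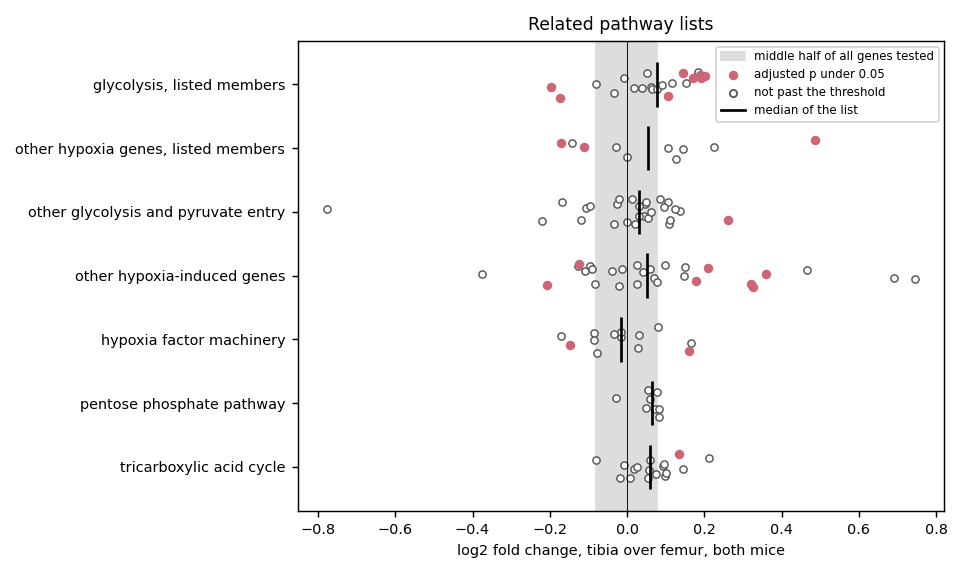
Log2 fold change, tibia over femur across both mice, of each tested gene in the glycolysis and other hypoxia members and in 5 related lists, with red points past an adjusted p of 0.05, a black bar at each list's median and a grey band over the middle 50% of all genes tested. The list medians run from -0.017 for the HIF machinery to 0.078 for the glycolysis members.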

How the data were processed

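Per the labels' protocols, macrophages were sorted from marrow nucleated cells and mRNA libraries came from a Vazyme kit. Whole-number read counts per gene and library were deposited, unscaled, with all columns mapped by title (0 left over). Per the submitters' processing notes, the build was mm10 and the tools were bcl2fastq, HISAT2, featureCounts, Subread and DESeq2. The labels give no version, annotation or strand setting, so overlapping and antisense genes cannot be told apart. Among counts from 1 to 10, 69.8% were even, as when both ends of a fragment count, so the floor of 3 fragments is 6 counts and covers counting error only.

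Counts were fitted in R 4.3.3 with edgeR 4.0.16 (TMM, filterByExpr with a minimum count of 10 over mouse and bone, glmQLFit and glmQLFTest, two-sided). Bone was tested with mouse as a term, and within and between mice with 1 mean per mouse and bone. The fit was tested on simulated data. Standard errors are the change over the square root of F. Alternatives were DESeq2 1.42.0, limma 3.58.1, other scaling and filters, halved counts, the replicate block and omitted libraries. Levels per kilobase use GENCODE vM21 exon lengths, and copies are matches of at least 150 bases. Members and lists were chosen with earlier results of these data known. Named genes are the 32 members and, from each pathway list, up to 5 genes called over both mice by largest change. Of the list genes named, Plin2, Cxcr4, Eno3 and Mdh2 fall outside this rule and were named after their values were seen.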

Additional observations from a re-analysis of the deposited data

Results flagged for a closer look

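The change between tibia and femur differed between the mice, by a test of the difference itself, in 5 of the 124 members and list genes tested (4.03%), all with a higher log2 change in mouse 19, where 2.89% of all genes tested did. The values are the log2 change in mouse 19 minus that in mouse 7, with edgeR's Benjamini-Hochberg adjusted p. For Pfkfb3 the value was 0.45 ± 0.09 (SE, adjusted p = 0.00179), and for Hif1a it was 0.43 ± 0.06 (adjusted p = 5.65e-05), both from tibias below the femur in mouse 7 and above it in mouse 19. For Hmox1 it was 0.45 ± 0.07 (adjusted p = 0.000102), from a log2 change of 0.10 in mouse 7 and 0.55 in mouse 19. Plin2, which coats lipid droplets, had a difference of 0.28 ± 0.08 (adjusted p = 0.0257), from 0.04 in mouse 7 and 0.33 in mouse 19. Eno3, the muscle enolase, had a difference of 0.94 ± 0.23 (adjusted p = 0.00948), from -0.62 in mouse 7 and 0.32 in mouse 19, at 12.4 ± 6.6 CPM in femur and 10.2 ± 1.9 CPM in tibia (SD, n = 6). With 1 animal per arm of each difference, animals and all else that set them apart cannot be told apart.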

How the results depend on the processing

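Of the members' changes under the alternatives, 913 kept direction and side of the threshold, 96 lost it, 10 gained it and 17 reversed sign, the last all in genes not called over both mice. Over both mice, the count of members higher (7) became 0 without a mouse term and 0 on sums per animal, and that of glycolysis members (6) likewise 0 and 0. The count lower (4) became 1 with the replicate block, 1 without a mouse term, 0 on sums, 1 in mouse 7 alone, 2 in mouse 19 alone, 1 at an adjusted p under 0.01 and 1 to 3 when 1 library was left out. Glycolysis members lower (2) became 1 with the replicate block, 1 without a mouse term, 0 on sums, 0 in mouse 7 alone, 1 at 0.01 and 1 to 2 without 1 library. Other hypoxia members higher (1) became 2 with no filter, 0 without a mouse term, 0 on sums, 2 in mouse 19 alone and 1 to 2 without 1 library. Other hypoxia members lower (2) became 0 with the replicate block, 0 without a mouse term, 0 on sums, 1 in mouse 7 alone, 0 in mouse 19 alone, 0 at 0.01 and 0 to 1 without 1 library. Within mouse 19, members higher (7) ran from 2 to 8 without 1 library, and members lower (1) became 2 with no filter, halved counts, DESeq2 or limma-voom, and 1 to 2 without 1 library. On sums, members higher (0) became 1 with no filter and 0 to 1 without 1 library. Deviations of same-numbered libraries of the bones correlated at -0.0474 to 0.000594, and the highest correlations with other numbers were 0.0095 to 0.0594. These values gave no sign that the numbers pair the libraries, but they cannot exclude a pairing. The log2 changes that reversed were those of Pfkfb3 (-0.16 in mouse 7 alone), Hif1a (-0.0747 in mouse 7 alone), Bnip3l (0.0055 in mouse 7 alone), Pfkfb4 (0.050 in mouse 19 alone, -0.039 to 0.022 without 1 library), Eno1 (0.11 in mouse 7 alone, -0.076 to 0.012 without 1 library) and Egln1 (-0.000532 with RLE size factors, -0.000592 with DESeq2, -0.030 in mouse 7 alone, -0.015 to 0.017 without 1 library). The causes were not tested. Low counts limit Adm and leave wide errors for Eno1 and Aldoc, and whether reads of Eno1 were lost to its copy was not tested. With 2 animals the spread between animals is barely measured.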
